A study of Mus musculus with 4 samples.

Results

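The 9 HoxA genes described here, Hoxa2, Hoxa3, Hoxa4, Hoxa5, Hoxa6, Hoxa7, Hoxa9, Hoxa10 and Hoxa11, were taken by symbol from a table of 55426 mouse genes, and all 9 were among the 13245 genes with enough reads to be tested. They lie within 83.4 kb of chromosome 6 (GRCm38) and are all transcribed from the minus strand. Poly(A)-selected RNA was sequenced from 4 libraries of transformed haematopoietic stem and progenitor cells, which came from lineage-negative mouse bone marrow and were kept in culture as lines. Of these libraries 2 came from the line named MLL-ENL ∆YEATS (aa372-559), whose fusion holds residues 372 to 559 of ENL, and 2 from the MLL-ENL line, whose ENL residues the labels do not state. Both lines carry an MLL-ENL fusion and neither is untransformed. The design text calls the libraries of a line technical replicates, so the p-values below reflect the scatter among libraries of 1 culture line, and genotype and line cannot be told apart. Gene-level counts do not tell the fusion from the cells' own genes and so do not check the labels: Kmt2a had 70.5 and 67.9 CPM (read counts scaled to the size of each library) in MLL-ENL ∆YEATS and 51.9 and 84.1 CPM in MLL-ENL, and Mllt1 (ENL) had 64.0 and 59.2 CPM against 67.7 and 62.1 CPM.

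Hox genes encode homeodomain transcription factors that give positions along the body axis their identity. In each cluster the genes stand in a fixed order: those at the 3′ end (low numbers) are used early and towards the head, and those at the 5′ end (high numbers, the Abdominal-B type) late and towards the tail. In blood, the HoxA genes from the middle of the cluster to Hoxa10 are active in stem and progenitor cells and are shut down as myeloid cells mature. MLL (Kmt2a) normally maintains Hox transcription, and leukaemic MLL fusions, which bring elongation factors such as ENL (Mllt1) to the same genes, hold HOXA9 and the cofactor gene MEIS1 in an active state.

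Totals were 28814798 and 28177480 expected counts in the MLL-ENL ∆YEATS libraries and 28121268 and 27812855 in the MLL-ENL libraries. The MLL-ENL ∆YEATS pair was closer together (SD of the log2 ratio 0.293 over tested genes) than the MLL-ENL pair (0.474), and the libraries of both pairs differed by more than counting noise (chi-square per degree of freedom 1.99 in MLL-ENL ∆YEATS and 89.8 in MLL-ENL). Markers of the labelled cell type were present in part: of 7 stem and progenitor markers 1 rose (Spi1) and 2 fell (Kit and Cd48) in MLL-ENL ∆YEATS. Their summed level was 1430 and 1420 CPM against 1360 and 1650 CPM in MLL-ENL. Most of this sum was Myb (908 and 903 CPM against 950 and 1130 CPM), which was not called. Flt3 had 1 and 1 counts in MLL-ENL ∆YEATS and 5 and 3 in MLL-ENL. Cd48 had 1 and 2 counts in MLL-ENL ∆YEATS and 94 and 139 in MLL-ENL. It passed the filter through the MLL-ENL libraries alone and so had to differ. Kit, the stem cell factor receptor, had 2.62 and 3.91 CPM in MLL-ENL ∆YEATS and 50.4 and 66.9 CPM in MLL-ENL. Cd34 had 3 and 3 counts in the MLL-ENL ∆YEATS libraries and 0 and 0 in the MLL-ENL libraries. Of the markers of mature lineages, 4 of 5 T and NK genes and 3 of 4 B genes had no count in any library. Of 8 granulocyte-monocyte progenitor markers 1 rose and 4 fell in MLL-ENL ∆YEATS, and their summed level was 3740 and 3760 CPM against 7210 and 6120 CPM in MLL-ENL. Of 7 mature neutrophil markers 3 rose (S100a8, S100a9 and Mmp8) and 1 fell (Ngp), with a median log2 fold change of -0.27. Their higher sum in MLL-ENL ∆YEATS (353 and 365 CPM against 146 and 121 CPM) came from S100a8 and S100a9. S100a8 had 124 and 143 CPM against 34.6 and 25.2 CPM, and S100a9 had 200 and 196 CPM against 42.8 and 38.1 CPM. Ly6g, Camp and Ltf had values below 0 and were not called. Mmp8 passed the filter through the MLL-ENL ∆YEATS libraries alone and so had to differ. Of 5 macrophage markers 2 rose, and C1qa and C1qb were at 0. Macrophage markers summed to 67.1 and 66.4 CPM against 29.9 and 38.1 CPM. Of 6 stromal and endothelial markers Pecam1 rose (60.5 and 60.0 CPM against 4.74 and 5.65 CPM) and Cdh5 was at 0. The rest of that list was near 0: Col1a1 had at most 15 counts in a library, and Col1a2, Pdgfrb and Tek at most 2. These counts stand beside 7.04% of all tested genes called higher and 9.84% called lower. The part of these shifts in the HoxA differences was not tested, and in bulk RNA fewer cells with a transcript and less transcript per cell cannot be told apart.

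The cluster was used unevenly in both lines. The FPKM scale divides by an estimated transcript length and so allows genes to be set side by side. On it, Hoxa9 was the highest of the 9 genes in all 4 libraries and Hoxa2 the lowest. The first place of Hoxa9 in MLL-ENL rests on that estimate. In CPM, Hoxa10 (301 and 287) stood above Hoxa9 (267 and 269) there. The implied lengths in MLL-ENL were 2005 and 1941 bases for Hoxa10 and 1354 and 1330 bases for Hoxa9. The highest level was 140 and 152 times the lowest in the MLL-ENL ∆YEATS libraries, and 194 and 258 times in the MLL-ENL libraries. In MLL-ENL ∆YEATS the mean levels ran from Hoxa9 (195 ± 2.14 FPKM, SD, n = 2) through Hoxa10 (48.4 ± 0.0919), Hoxa7 (45.9 ± 2.01), Hoxa5 (39.2 ± 0.502), Hoxa11 (25.6 ± 1.41), Hoxa3 (9.28 ± 0.714), Hoxa6 (6.40 ± 0.559) and Hoxa4 (1.56 ± 0.0566) to Hoxa2 (1.34 ± 0.0919). Hoxa10 and Hoxa7 were separated there by little more than the spread of Hoxa7. In MLL-ENL the order was Hoxa9 (196 ± 11.5), Hoxa10 (146 ± 4.32), Hoxa11 (55.5 ± 3.86), Hoxa7 (38.7 ± 4.98), Hoxa5 (12.8 ± 0.778), Hoxa3 (6.57 ± 0.226), Hoxa6 (4.06 ± 1.66), Hoxa4 (1.71 ± 0.184) and Hoxa2 (0.880 ± 0.127). Hoxa11 thus held the fifth place in MLL-ENL ∆YEATS and the third in MLL-ENL, and Hoxa5 the fourth place and the fifth. Hoxa3, Hoxa6, Hoxa4 and Hoxa2 kept places 6 to 9 in every library.

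**Figure D1:**
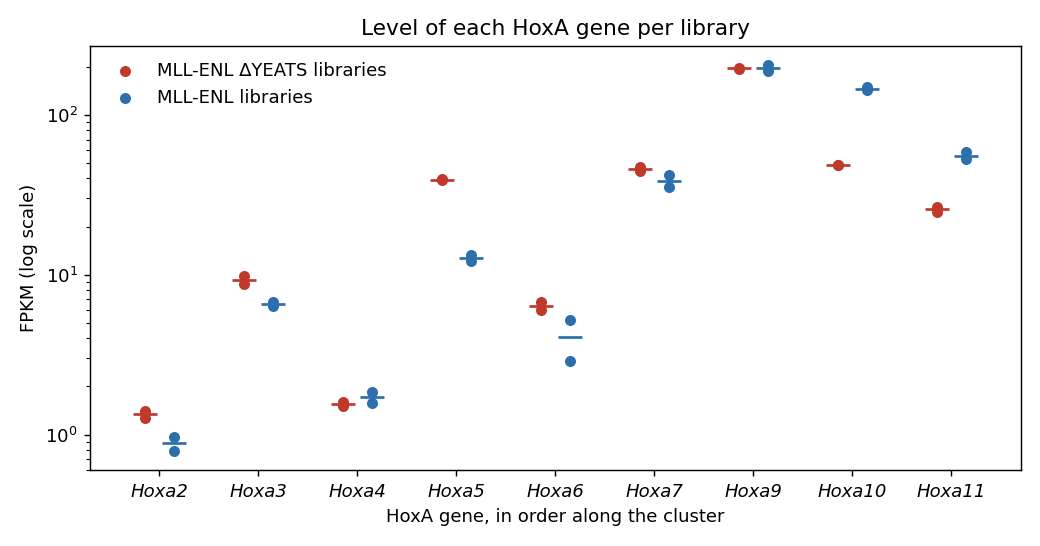
FPKM (log axis) of 9 HoxA genes, in their order along the cluster; each point is 1 library and each bar the mean of 2 libraries of MLL-ENL ∆YEATS or MLL-ENL. Hoxa9 stands near 195 FPKM in both lines, while Hoxa10 and Hoxa11 are lower and Hoxa5 is higher in MLL-ENL ∆YEATS.

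Between the lines, 1 of the 9 genes rose in MLL-ENL ∆YEATS (Hoxa5), 2 fell (Hoxa10 and Hoxa11) and 6 did not pass the test (quasi-likelihood test of edgeR with Benjamini-Hochberg adjustment over all tested genes, threshold 0.05). Of all 13245 tested genes 7.04% were called higher and 9.84% lower, 16.9% in all, so 3 of 9 stands on a background that is itself broad. Under the alternatives the share of all genes called was 17% with DESeq2 size factors, 15.5% with library totals, 9.44% without a filter, 13.9% at 5 CPM or more, 18.2% with DESeq2, 11.1% and 11.4% with limma on log2 FPKM at pseudocounts of 1 and 0.1 (3.09% without a filter), 16.6% with limma-voom, 23.7% with a replicate block, 17.8% without mitochondrial and ribosomal genes, and 21.9% with the gene length trend removed. Leaving out MLL-ENL ∆YEATS replicate 1 or 2 gave 10.3% or 10.2%, and leaving out MLL-ENL replicate 1 or 2 gave 54.7% or 66.5%, where the spread came from the close MLL-ENL ∆YEATS pair alone. The median log2 fold change (MLL-ENL ∆YEATS over MLL-ENL) was 0.25 over the 9 genes and -0.013 over all tested genes. The CPM of the 2 groups did not overlap in 8 of the 9 genes, where 64.3% of all tested genes have groups that do not overlap; Hoxa4 was the exception. Along the cluster, the lowest log2 fold changes were those of Hoxa10 (-1.63) and Hoxa11 (-1.17), towards the 5′ end. Spearman's rho of gene order and log2 fold change was -0.62 over 9 genes, a description, since the genes share the same 4 libraries. The values did not fall evenly: Hoxa5, in the middle, had the highest, and Hoxa4 (-0.19) lay below Hoxa9 (-0.05). The genes from Hoxa2 to Hoxa7 had values from -0.19 to 1.56, and those from Hoxa9 to Hoxa11 from -1.63 to -0.05.

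**Figure D2:**
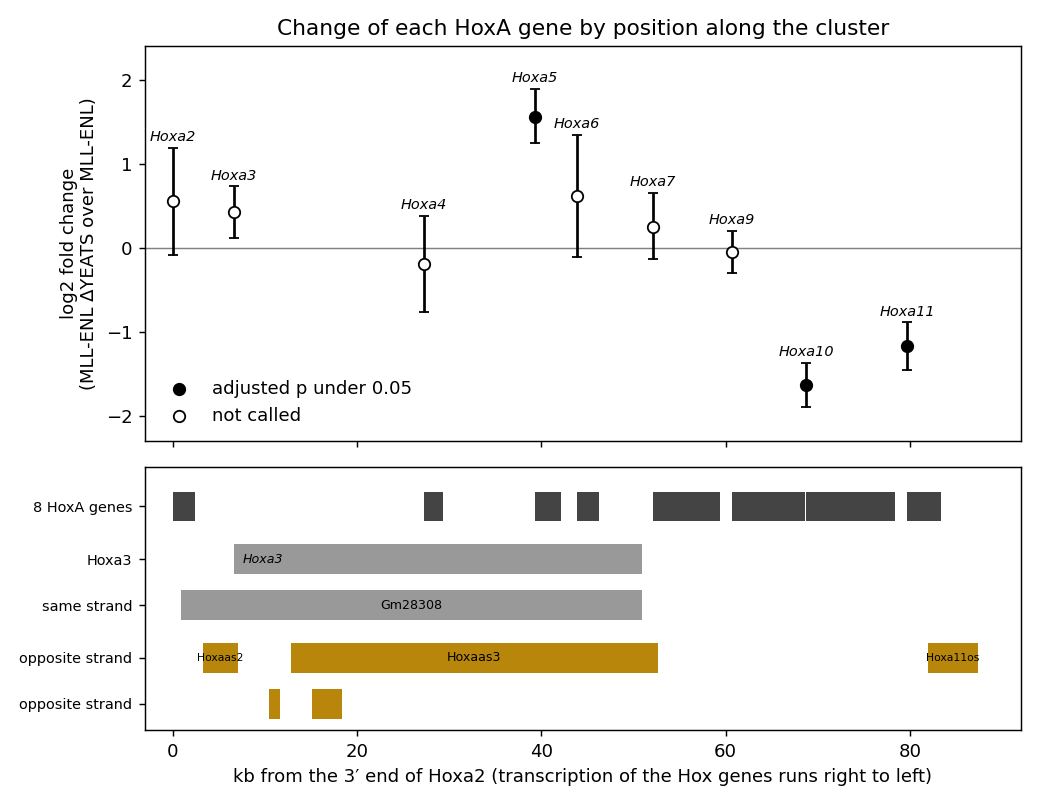
Upper panel, log2 fold change (MLL-ENL ∆YEATS over MLL-ENL) of each HoxA gene with its 95% interval, placed at the 3′ end of the gene in kb from the 3′ end of Hoxa2; filled points passed the test. Lower panel, annotated spans of the genes and of tested transcripts that overlap them (unlabelled: Gm15050 and 5730596B20Rik); Hoxa5 (1.56) is the called gene above 0, and Hoxa10 (-1.63) and Hoxa11 (-1.17) are the called genes below it.

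Hoxa9, Hoxa10 and Hoxa11, the Abdominal-B type genes of the group, split between neighbours. Hoxa9 (chromosome 6, 52223100 to 52231089), which is needed for normal growth of myeloid and lymphoid progenitors and transforms marrow cells together with Meis1, reached 255 and 263 CPM in MLL-ENL ∆YEATS, against 267 and 269 CPM in MLL-ENL. These ranges lay side by side without overlap in CPM, while in FPKM (197 and 194 against 188 and 204) they overlapped. The CPM difference was a log2 fold change of -0.05 ± 0.10 (SE), with a 95% interval of -0.30 to 0.20 and an adjusted p of 0.766, which does not show that the levels are equal but bounds the difference. Hoxa10 (52231197 to 52240854), whose annotated span begins 107 bases beyond that of Hoxa9 and whose forced expression in mouse marrow leads to myeloid leukaemia, measured 95.1 and 94.5 CPM in MLL-ENL ∆YEATS, against 301 and 287 CPM in MLL-ENL. Both MLL-ENL ∆YEATS libraries were at 0.322 of the MLL-ENL level on average (log2 fold change -1.63 ± 0.10 SE, 95% interval -1.90 to -1.37, adjusted p = 0.000771). Hoxa11 (52242106 to 52245810), best known from limb and uterine development, had 51.9 and 48.2 CPM in MLL-ENL ∆YEATS and 111 and 114 CPM in MLL-ENL. It fell by 1.17 ± 0.11 (SE) on the log2 scale (adjusted p = 0.00243). The calls of Hoxa10 and Hoxa11 held in all 16 alternatives of processing and of left-out libraries.

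The start regions of the genes that moved and of Hoxa9, which lies next to Hoxa10 and was not called, are shown for context. Each is the 250 bases before a RefSeq start site (GRCm38.p6), read on the minus strand from 5′ to 3′, and capitals mark matches to the motifs named after the sequences.
Hoxa5, chr6:52204588-52204837: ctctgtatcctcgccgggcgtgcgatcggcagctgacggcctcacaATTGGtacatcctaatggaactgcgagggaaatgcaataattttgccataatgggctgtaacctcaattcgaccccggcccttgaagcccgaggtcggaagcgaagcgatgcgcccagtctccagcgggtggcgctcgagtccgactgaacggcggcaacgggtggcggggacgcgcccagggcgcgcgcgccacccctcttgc
Hoxa9, chr6:52227371-52227620: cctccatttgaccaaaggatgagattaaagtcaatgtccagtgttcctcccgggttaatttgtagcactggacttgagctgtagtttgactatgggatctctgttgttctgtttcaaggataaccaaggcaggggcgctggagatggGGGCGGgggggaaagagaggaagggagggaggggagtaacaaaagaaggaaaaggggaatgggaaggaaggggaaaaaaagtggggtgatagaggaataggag
Hoxa10 distal start, chr6:52240855-52241104: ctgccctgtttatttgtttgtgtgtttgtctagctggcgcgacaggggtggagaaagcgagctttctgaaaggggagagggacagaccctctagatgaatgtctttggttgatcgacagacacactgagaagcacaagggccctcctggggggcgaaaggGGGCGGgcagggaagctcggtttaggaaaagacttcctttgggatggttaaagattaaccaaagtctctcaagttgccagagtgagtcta
Hoxa10 internal start, chr6:52234940-52235189: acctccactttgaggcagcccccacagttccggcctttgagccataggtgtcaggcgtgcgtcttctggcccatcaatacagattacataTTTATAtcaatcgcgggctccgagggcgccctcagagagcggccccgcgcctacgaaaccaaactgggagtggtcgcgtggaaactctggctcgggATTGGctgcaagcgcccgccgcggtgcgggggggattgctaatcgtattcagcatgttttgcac
Hoxa11, chr6:52245811-52246060: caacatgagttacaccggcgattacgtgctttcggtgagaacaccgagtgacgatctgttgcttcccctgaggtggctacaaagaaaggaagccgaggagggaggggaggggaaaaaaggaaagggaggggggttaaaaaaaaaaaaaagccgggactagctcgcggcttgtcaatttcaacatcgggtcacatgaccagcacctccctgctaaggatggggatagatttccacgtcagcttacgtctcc
The Hoxa9 window and the window of the internal Hoxa10 start lie within introns of longer transcripts of their own genes, the Hoxa5 window lies in an intron of Hoxa3, the distal Hoxa10 window lies between Hoxa10 and Hoxa11, and the Hoxa11 window overlaps exons annotated on the opposite strand (Hoxa11os and Gm28032). A search of both strands found GGGCGG (the SP type, in 32.7% of 32851 windows of the same length) 1 time each in the Hoxa9 and distal Hoxa10 windows. CCAAT (33.8% of windows) was found 1 time each in the Hoxa5 and internal Hoxa10 windows, and TATAAA (12.4%) 1 time in the internal Hoxa10 window. TGATNNAT (a HOX-PBX motif, 7.68%), TGACAG (MEIS, 15.9%) and TTTATNG (CDX, 9.81%) had no match in these 5 windows. TATAAA and TTTATNG can share letters. None of the motifs was found in the Hoxa11 window. The part of any of these motifs in the differences between the lines was not tested.

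In the middle of the cluster Hoxa5 stood apart from its neighbours. Hoxa5 (52201754 to 52204587), a regulator of lung and axial skeleton development that is also used in blood progenitors, had 60.5 and 61.8 CPM in MLL-ENL ∆YEATS, against 22.3 and 19.1 CPM in MLL-ENL. It was 2.95 times as high in MLL-ENL ∆YEATS (log2 fold change 1.56 ± 0.13 SE, 95% interval 1.24 to 1.89, adjusted p = 0.00163), again in all 16 alternatives. Hoxa4 (52189671 to 52191753), which takes part in patterning the neck vertebrae, had few reads, with 1.94 and 2.06 CPM in MLL-ENL ∆YEATS and 2.54 and 2.03 CPM in MLL-ENL. Its groups overlapped, and its interval of -0.76 to 0.38 allows changes in either direction (log2 fold change -0.19, adjusted p = 0.605).

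Hoxa6 (52206288 to 52208722) had 3.88 and 3.45 CPM in MLL-ENL ∆YEATS, against 1.79 and 2.99 CPM in MLL-ENL. MLL-ENL replicate 1, the lower of that pair, decided how far the groups were apart: the log2 fold change was 0.61 ± 0.29 (SE; adjusted p = 0.204), 0.30 without that library (adjusted p = 0.206) and 1.03 without MLL-ENL replicate 2 (adjusted p = 0.000289). Hoxa7 (52214491 to 52221854), which is activated by proviral insertion together with Meis1 in mouse myeloid leukaemia, had 69.9 and 74.9 CPM in MLL-ENL ∆YEATS and 68.6 and 52.7 CPM in MLL-ENL. The groups of Hoxa7 barely separated (log2 fold change 0.25 ± 0.16 SE, adjusted p = 0.321), and the gene was called higher without MLL-ENL replicate 1 (0.46, adjusted p = 1.01e-07) but not without replicate 2 (0.08). The Hoxa6 and Hoxa7 calls stand beside the broad calling without an MLL-ENL library given above.

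At the 3′ end both genes had values above 0 that did not pass the test. Hoxa2 (52162417 to 52164831), which patterns the hindbrain and pharyngeal arches, had 2.04 and 1.85 CPM in MLL-ENL ∆YEATS and 1.53 and 1.14 CPM in MLL-ENL, from 60 and 53 counts in MLL-ENL ∆YEATS and 41 and 32 in MLL-ENL. Its log2 fold change was 0.55 ± 0.25 SE (adjusted p = 0.204), and it was called only without MLL-ENL replicate 1 (0.77). Hoxa3 (52169062 to 52213336), which is needed for thymus and parathyroid formation, had 18.7 and 20.7 CPM in MLL-ENL ∆YEATS and 15.0 and 14.3 CPM in MLL-ENL. It came nearest to the threshold among the genes that were not called (log2 fold change 0.43 ± 0.12 SE, adjusted p = 0.0732). Hoxa3 was called without MLL-ENL replicate 1 (0.46) or 2 (0.39) and not without MLL-ENL ∆YEATS replicate 1 (0.49) or 2 (0.35). The Hoxa2 and Hoxa3 calls without an MLL-ENL library stand beside the broad calling given above.

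**Figure D3:**
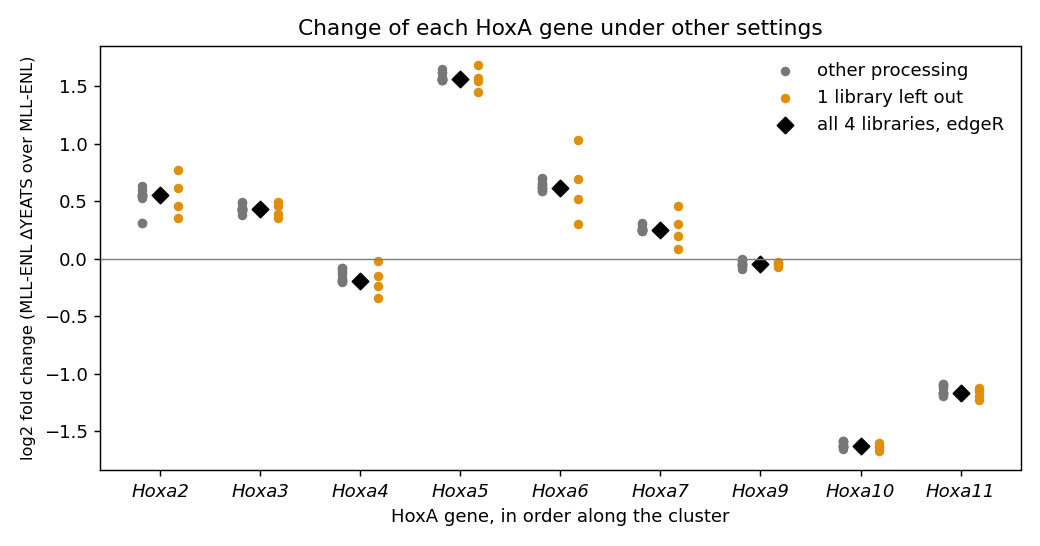
Log2 fold change (MLL-ENL ∆YEATS over MLL-ENL) of each HoxA gene with all 4 libraries (diamond), under other processing (grey) and with 1 library left out (orange). Hoxa5, Hoxa10 and Hoxa11 stay between 1.45 and 1.68, -1.67 and -1.58, and -1.23 and -1.09, while Hoxa6 spreads from 0.30 to 1.03.

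Ratios of neighbours within a library do not depend on the scaling between libraries, and 6 of the 8 ratios did not overlap between the lines. The share among ratios of other gene pairs was not computed. Among single tested genes 64.3% do not overlap, so the 6 of 8 is given as a count alone. Hoxa10 stood at 0.246 and 0.25 of the Hoxa9 level (FPKM) in MLL-ENL ∆YEATS, against 0.762 and 0.731 in MLL-ENL, a difference of -1.59 on the log2 scale. Hoxa5 was 25.6 and 24.7 times the Hoxa4 level in MLL-ENL ∆YEATS and 7.24 and 7.73 times in MLL-ENL, a difference of 1.75. In both pairs of genes the lines were far apart against the spread within a line. Hoxa11 over Hoxa10 was 0.549 and 0.509 in MLL-ENL ∆YEATS and 0.368 and 0.390 in MLL-ENL, so that Hoxa10 was further below its MLL-ENL level than Hoxa11 was. Hoxa9 over Hoxa7 was 4.42 and 4.09 in MLL-ENL ∆YEATS and 4.45 and 5.81 in MLL-ENL, separated by less than the MLL-ENL pair was apart. Hoxa6 over Hoxa5 was 0.175 and 0.152 in MLL-ENL ∆YEATS and 0.216 and 0.428 in MLL-ENL (a difference of -0.90 on the log2 scale), with the MLL-ENL libraries themselves far apart. Hoxa4 over Hoxa3 was 0.173 and 0.163 in MLL-ENL ∆YEATS and 0.287 and 0.235 in MLL-ENL (-0.63). The ratios of Hoxa3 to Hoxa2 and of Hoxa7 to Hoxa6 overlapped between the lines. With 2 libraries against 2 a permutation test cannot go below p = 0.333, so none was run.

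**Figure D4:**
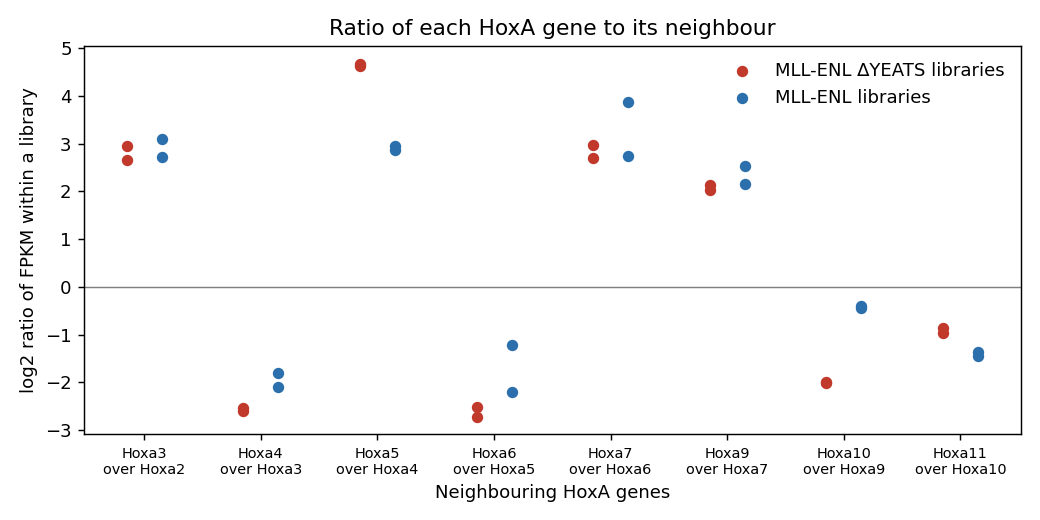
Log2 ratio of the FPKM of each HoxA gene to that of its neighbour, in each MLL-ENL ∆YEATS and MLL-ENL library. The 2 widest gaps between the lines are at Hoxa5 over Hoxa4 (1.75) and Hoxa10 over Hoxa9 (-1.59).

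The make-up of the HoxA transcripts differed accordingly. Hoxa10 and Hoxa11 together held 20.1% and 19.6% of the summed FPKM of the 9 genes in the MLL-ENL ∆YEATS libraries, against 43.4% and 43.8% in the MLL-ENL libraries. Hoxa2 to Hoxa7 held 27.3% and 28.4% in MLL-ENL ∆YEATS against 15.0% and 13% in MLL-ENL. Hoxa5 alone held 10.4% and 10.6% against 2.95% and 2.58%. The share of Hoxa9 was 52.6% and 52.0% in MLL-ENL ∆YEATS and 41.6% and 43.1% in MLL-ENL, although its own level was not called: a share also depends on the sum of the other genes. The summed level of the 9 genes was 559 and 570 CPM in MLL-ENL ∆YEATS and 792 and 762 CPM in MLL-ENL.

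**Figure D5:**
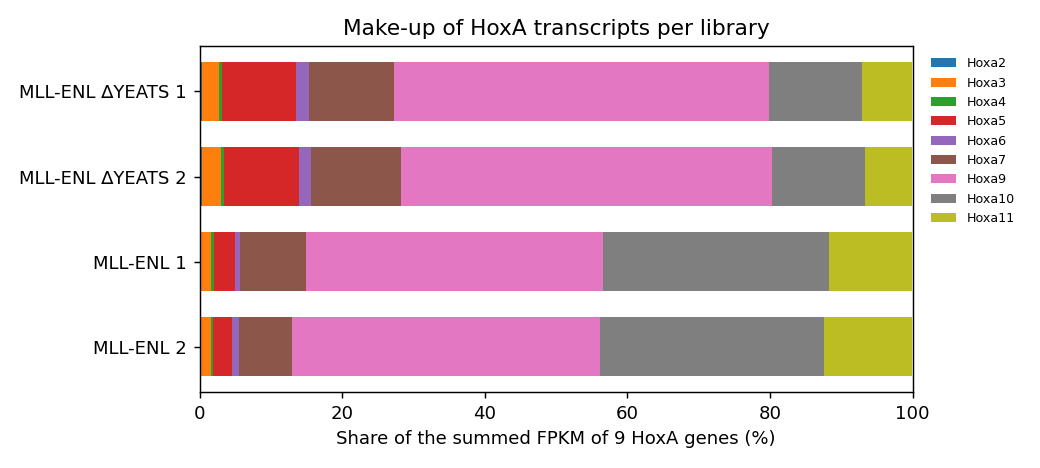
Share of each HoxA gene in the summed FPKM of the 9 genes, 1 bar per library. Hoxa10 takes 13% in each MLL-ENL ∆YEATS library, against 31.7% and 31.5% in the MLL-ENL libraries.

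Other transcripts overlap these genes, and the labels do not state whether counting used the strand. Among 4 tested transcripts of a list of the cluster's non-coding RNAs 1 rose and 0 fell, beside 16.9% of all tested genes called. Hoxaas3, which is annotated on the opposite strand across Hoxa3 to Hoxa7, had 2.90 and 4.50 CPM in MLL-ENL ∆YEATS and 1.38 and 1.60 CPM in MLL-ENL (log2 fold change 1.31 ± 0.29 SE, adjusted p = 0.0381). That call rested on few reads (85 and 129 counts against 37 and 45) and ended without MLL-ENL ∆YEATS replicate 2 (adjusted p = 0.253). Hoxa11os, opposite to Hoxa11, had 11.1 and 11.2 CPM in MLL-ENL ∆YEATS and 9.37 and 6.79 CPM in MLL-ENL (log2 fold change 0.46, adjusted p = 0.16), a value above 0 where Hoxa11 fell. Hoxa11os was called higher without MLL-ENL replicate 1 (0.71) or 2 (0.25), beside the broad calling there given above. It was not called without MLL-ENL ∆YEATS replicate 1 (0.46) or 2 (0.45). Hoxaas2 (0.50) and Hotairm1 (0.47) were not called, and Hottip had no counts. Gm28308, a gene model on the same strand that spans Hoxa2 to Hoxa6, had 1.64 and 1.36 CPM in MLL-ENL ∆YEATS and 1.34 and 1.81 CPM in MLL-ENL and was not called. The gene of miR-196b, which lies within Hoxa9, had no counts in this poly(A)-selected RNA.

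The genes differ in how much of their sequence belongs to them alone. All 50-base words of the Hoxa5 and Hoxa10 transcripts, 99.6% of those of Hoxa6 and 99.4% of those of Hoxa9 were found in no transcript of another gene on either strand. Of the Hoxa11 words 33.0% are also in Hoxa11os on the opposite strand, of the Hoxa7 words 18.7% in Hoxaas3 and of the Hoxa4 words 13.3% in Gm29430. Of the Hoxa2 words 12.7% are shared with Gm28308, and of the Hoxa3 words 7.42% are shared on the same strand and 21.7% on the other. Counts of Hoxa2, Hoxa3, Hoxa4, Hoxa7 and Hoxa11 may therefore hold reads of those transcripts, while those of Hoxa5, Hoxa9 and Hoxa10 are little exposed to this. The share of words is not the share of counts in doubt, which was not measured. Sharing on the opposite strand matters only if counting ignored the strand. The transcript length implied by counts and FPKM, which moves when the estimated use of long and short transcripts of a gene moves, was 2001 and 1989 bases for Hoxa10 in MLL-ENL ∆YEATS and 2005 and 1941 bases in MLL-ENL. The ratio of the lines in this length was between 0.987 and 1.05 for all 9 genes, the highest for Hoxa7.

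The other Hox clusters were nearly silent. All 9 HoxC and all 9 HoxD genes had 0 counts in every library, where 3 counts correspond to 0.102 and 0.105 CPM in MLL-ENL ∆YEATS and 0.112 and 0.107 CPM in MLL-ENL. Of 10 HoxB genes 3 passed the filter, and 2 of these fell. Hoxb4, which expands blood stem cells when forced on, had 0.375 and 0.698 CPM in MLL-ENL ∆YEATS and 2.84 and 3.09 CPM in MLL-ENL (log2 fold change -2.46 ± 0.33 SE, adjusted p = 0.00764). Hoxb3 had 3 and 5 counts in MLL-ENL ∆YEATS and 12 and 18 in MLL-ENL, and its call (adjusted p = 0.0483) ended in most alternatives. Hoxb13, at the 5′ end of that cluster, was the highest HoxB gene, with 6.17 and 5.86 CPM in MLL-ENL ∆YEATS and 7.95 and 6.40 CPM in MLL-ENL (adjusted p = 0.372), while Hoxb2, Hoxb6 and Hoxb9 had no counts and the other 4 had at most 1 in a library. Hoxb3 passed the filter through the MLL-ENL libraries alone and so had to differ, and the 2 of 3 are given as counts alone.

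Of 9 tested genes on either side of the HoxA cluster 1 rose and 1 fell, beside 16.9% of all tested genes called, and the median log2 fold change was 0.07. Tax1bp1, an autophagy adaptor beyond the 5′ end of the cluster, had 360 and 356 CPM in MLL-ENL ∆YEATS, against 646 and 634 CPM in MLL-ENL (log2 fold change -0.84, adjusted p = 0.00537); the call ended without MLL-ENL ∆YEATS replicate 1 or 2 (adjusted p = 0.127 and 0.141). Snx10, an endosomal sorting protein beyond the 3′ end, had 13.4 and 16.2 CPM against 4.22 and 6.15 CPM (log2 fold change 1.51, adjusted p = 0.0107). Skap2, an adaptor protein gene beyond the 3′ end, was not called (0.22, adjusted p = 0.186), and Evx1, the homeobox gene beyond the 5′ end, had no counts.

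HOX proteins bind DNA with TALE homeodomain cofactors of the MEIS and PBX families. Of 9 tested cofactor genes 1 rose and 2 fell (median 0.01), beside 7.04% and 9.84% of all tested genes. Meis1, the partner of Hoxa9 in leukaemia, had 58.3 and 53.7 CPM in MLL-ENL ∆YEATS and 95.5 and 94.3 CPM in MLL-ENL (log2 fold change -0.76 ± 0.11 SE, adjusted p = 0.00997), a call that ended without MLL-ENL ∆YEATS replicate 1 or 2 (adjusted p = 0.122 and 0.239). Meis3 rose at a low level, with 2.35 and 3.18 CPM against 0.635 and 0.427 CPM (adjusted p = 0.0082). Pbx4 fell on 5 and 14 counts in MLL-ENL ∆YEATS against 37 and 33 in MLL-ENL (adjusted p = 0.0456, and 0.0517 with library totals). Its MLL-ENL ∆YEATS libraries alone would not have passed the filter, and it was not called without MLL-ENL ∆YEATS replicate 1. Pbx2, Pbx3 and Pknox1 were expressed and not called. Of 32 tested regulators of HOX chromatin, among them Kmt2a, Men1, Dot1l and the Polycomb genes Ezh2, Eed and Suz12, 0 rose and 0 fell by edgeR (median 0.09); 5 of them had an unadjusted p under 0.05, and DESeq2, limma and limma-voom called 0 as well. Calls among these regulators without an MLL-ENL library stand beside the broad calling of all genes there, given above, and are not read as changes. Cdx1, Cdx2 and Cdx4, activators of Hox genes in the embryo, had no counts. Of 13 tested genes tied to HOXA9 in myeloid leukaemia 2 rose and 6 fell (median -0.20), beside 7.04% and 9.84% of all tested genes. Igf1, 1 of the 6, passed the filter through the MLL-ENL libraries alone and so had to differ. Sox4 had 0.988 and 0.558 CPM in MLL-ENL ∆YEATS and 16.9 and 14.2 CPM in MLL-ENL (log2 fold change -4.32, adjusted p = 0.000771), Cebpa had 86.1 and 82.5 CPM against 277 and 282 CPM (-1.73, adjusted p = 0.00065), and Igf1 was at 0 in both MLL-ENL ∆YEATS libraries against 1.3 CPM on average in MLL-ENL, at least 12.5-fold lower with 3 counts taken as the limit of each library.

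By the distance of centred log2 CPM over the 4 libraries, the genes of at least 10 CPM closest in pattern to Hoxa10 were Mylk, Muc13 and Ccno (distances 0.0627, 0.0691 and 0.0776, of 8307 genes ranked). Those closest to Hoxa5 were St3gal2, Lcn2 and Zfp991 (0.0484, 0.0644 and 0.141), and those closest to Hoxa9 were Brip1os, Cdc123 and Dnajc10 (0.0221, 0.0237 and 0.0244). With 2 lines, such a likeness is mainly a similar difference between the lines.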

How the data were processed

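The authors deposited expected counts per gene, whole numbers in the file, and FPKM, which they scaled by length and library size. Tools listed in the submitters' processing notes are RSEM 1.3.3, STAR 2.7.8a, cutadapt 2.3 and FastQC 0.11.8, with the GRCm38 build; no source used here states the settings, annotation release or strand setting. Libraries were built from poly(A)-selected RNA (Lexogen) using Swift reagents, per the labels' protocols.

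Expected counts were rounded, filtered with edgeR's filterByExpr (13245 of 55426 genes kept), scaled by TMM and tested on all kept genes with the quasi-likelihood F-test (edgeR 4.0.16, R 4.3.3) without covariates, with Benjamini-Hochberg adjustment, and calls are at an adjusted p below 0.05. Residual degrees of freedom were 2 per gene, with 3.41 more from the prior. SE is the log2 fold change divided by the square root of F, and 95% intervals use t quantiles. Levels between genes use FPKM. The test was also run on simulated counts with known changes. These gave both lines the same spread per gene, unlike the real pairs, so the run does not show how the test behaves at unequal spread. Alternatives were DESeq2 1.42.0, limma 3.58.1 on log2 FPKM (pseudocounts of 1 and 0.1) and limma-voom, other scalings and filters, removal of gene classes or a length trend, a replicate block and each library left out. The floors of 3 counts allow for counting error only, while the libraries of both pairs differed by more than that. Reads had no molecular identifiers.

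Positions, spans and transcripts came from GENCODE release M21 (55240 identifiers matched), and start regions from RefSeq, which held windows for 8 of the 9 genes. Members, lists and the rule for named genes (all members, at most 3 called genes per list, and the 3 nearest in pattern to Hoxa5, Hoxa9 and Hoxa10) were chosen with earlier results of these data known. Genes of the lists named without a call were chosen after their values were seen. Of the HoxA genes themselves, those beyond the 9 were not analysed here.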

Additional observations from a re-analysis of the deposited data

How the results depend on the processing

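Hoxa5 was called higher and Hoxa10 and Hoxa11 lower in all 12 alternatives of processing and with each of the 4 libraries left out. The count of HoxA genes called lower in MLL-ENL ∆YEATS was 2 in each of these. The count called higher was 1 under all processing alternatives. Without MLL-ENL replicate 1 it also took in Hoxa2, Hoxa3 and Hoxa7, and without MLL-ENL replicate 2 Hoxa3 and Hoxa6. In both of these fits most of all tested genes were called, so the added HoxA calls are not particular to the cluster. No HoxA gene reversed a call. The fit with 1 library in a line assumes that it varies like the other line's pair. The replicate numbers did not pair the libraries (correlation of deviations -0.0677), and with a replicate block 1 HoxA gene was called higher and 2 lower, while the calls over all genes rose to 3133, against 2235. With a minimum of 5 CPM, Hoxa2, Hoxa4 and Hoxa6 were not tested. Scaling by library totals gave a median log2 fold change over all genes of 0.04, against -0.013.

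The difference in Hoxa5 over Hoxa4 was 1.63 with a pseudocount of 1, against 1.75, since Hoxa4 is near 1.6 FPKM; the other 23 processing alternatives of the neighbour ratios moved by less than the larger SD of the 2 lines. Leaving out a library moves such a ratio by less than that SD whatever the data, and says nothing of its stability. Hoxb3, with 18 counts at most, was not called in 6 of 11 processing alternatives and with 3 of 4 libraries left out. With limma on log2 FPKM (3 alternatives) Hoxaas3 (adjusted p 0.0745, 0.0822 and 0.213) and Snx10 (0.0687, 0.0765 and 0.192) were not called; Pbx4 was not called in 2 of them (0.0565 and 0.163), and Hoxb4 (0.057), Meis3 (0.0881) and Meis1 (0.0561) were not called in the one without a filter. Depth limits Hoxa2, Hoxa4 and Hoxa6 most, each with at most 114 counts in a library.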
